A study of Mus musculus with 10 samples.

Results

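The brakes described here are 10 negative regulators and translational effectors of mTORC1, the kinase complex that couples cell growth to nutrients and growth factors. They were chosen by name, as the rows of the deposited gene counts whose Ensembl identifier maps to Eif4ebp1, Eif4ebp2, Sesn1, Sesn2, Sesn3, Ddit4, Deptor, Akt1s1, Tsc1 or Tsc2. All 10 were found among 53379 genes, and 9 of them were among the 11551 genes with enough reads to be tested. Deptor was the exception. The study asked what loss of Cdkn1c, the imprinted gene for the cyclin-dependent kinase inhibitor p57KIP2, changes in the transcriptome of the developing cortex. RNA-seq was made by Smart-Seq2 from 400 sorted cells per library, with a single embryo behind each library, at embryonic day 16. The 3 cKO libraries came from cKO-Cdkn1c-MADM-7 embryos, which carried Cdkn1c-flox on both copies of chromosome 7, and the 7 control libraries from MADM-7 embryos without the floxed allele.

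Every embryo in both groups carried the MADM cassettes GT and TG on chromosome 7 and Emx1-Cre, a Cre expressed in progenitors of the dorsal telencephalon. MADM (mosaic analysis with double markers) labels dividing cells through recombination between chromosomes, and green, red and yellow cells were sorted together, so each library pools cells with maternal or paternal disomy of chromosome 7 with cells that have neither. The labels give the strain background as CD1 and the growth protocol gives a mixture of C57BL/6J and CD1. In the cKO embryos the deletion follows Emx1-Cre, so unlabelled neighbours in the cortex lost Cdkn1c too. The cells were released from neocortex with papain before sorting.

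mTORC1 phosphorylates the 4E-BP proteins and S6 kinases. An unphosphorylated 4E-BP holds the cap-binding protein eIF4E away from eIF4G and so limits cap-dependent translation. Upstream, the sestrins bind GATOR2 and can keep the Rag GTPases from bringing mTORC1 to the lysosome. TSC1 and TSC2 form a complex that switches off Rheb, the direct activator of mTORC1. DDIT4 (REDD1) acts through the TSC complex, and DEPTOR and PRAS40 (encoded by Akt1s1) bind the mTOR complexes themselves. In the developing cortex, loss of TSC1 or TSC2 gives enlarged neurons and the malformations of tuberous sclerosis. Many of these brakes are set by phosphorylation and protein turnover, which counts of mRNA do not show.

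Between 1738220 and 3362487 reads per library were counted on genes, and this total did not separate the genotypes (two-sided exact permutation test over 3 cKO and 7 control libraries, p = 0.583). Genes with at least 1 read numbered 17986 to 18319 in cKO and 16802 to 18100 in controls (same exact test, p = 0.0333, and 0.133 after adjustment over the 4 library measures tested). Cdkn1c had 3.91 to 10.7 CPM in cKO and 67.0 to 130 in controls, and all 10 libraries matched their genotype labels. This is a log2 difference of -3.66 between the genotypes (standard error 0.31, quasi-likelihood test of edgeR with Benjamini-Hochberg adjustment, adjusted p = 3.68e-06). CPM is the read count of a gene scaled to the TMM-normalized size of its library. Emx1, which marks the sorted lineage, was read at 48.0 to 156 CPM in cKO and 58.1 to 140 in controls.

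The genotypes differed in 2 of the 9 members tested. Eif4ebp1, which encodes the translation repressor 4E-BP1, was 8.23-fold higher in cKO, and Sesn2, which encodes the leucine-responsive sestrin 2, was 6.51-fold higher. Deptor, too low to be tested, was read more often in each of the 3 cKO libraries than in any control. The other 7 members tested did not pass the threshold of 0.05 on the adjusted p in either direction. Of all genes tested, 3.15% passed it in either direction and 2.27% as higher in cKO. An unadjusted p under 0.05 was found for 3 of the 9 members tested and for 16.4% of all genes tested. Because each library is a mixture of cells, more cells of a type that uses a gene and more of its RNA per cell cannot be told apart in these counts.

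**Figure D1:**
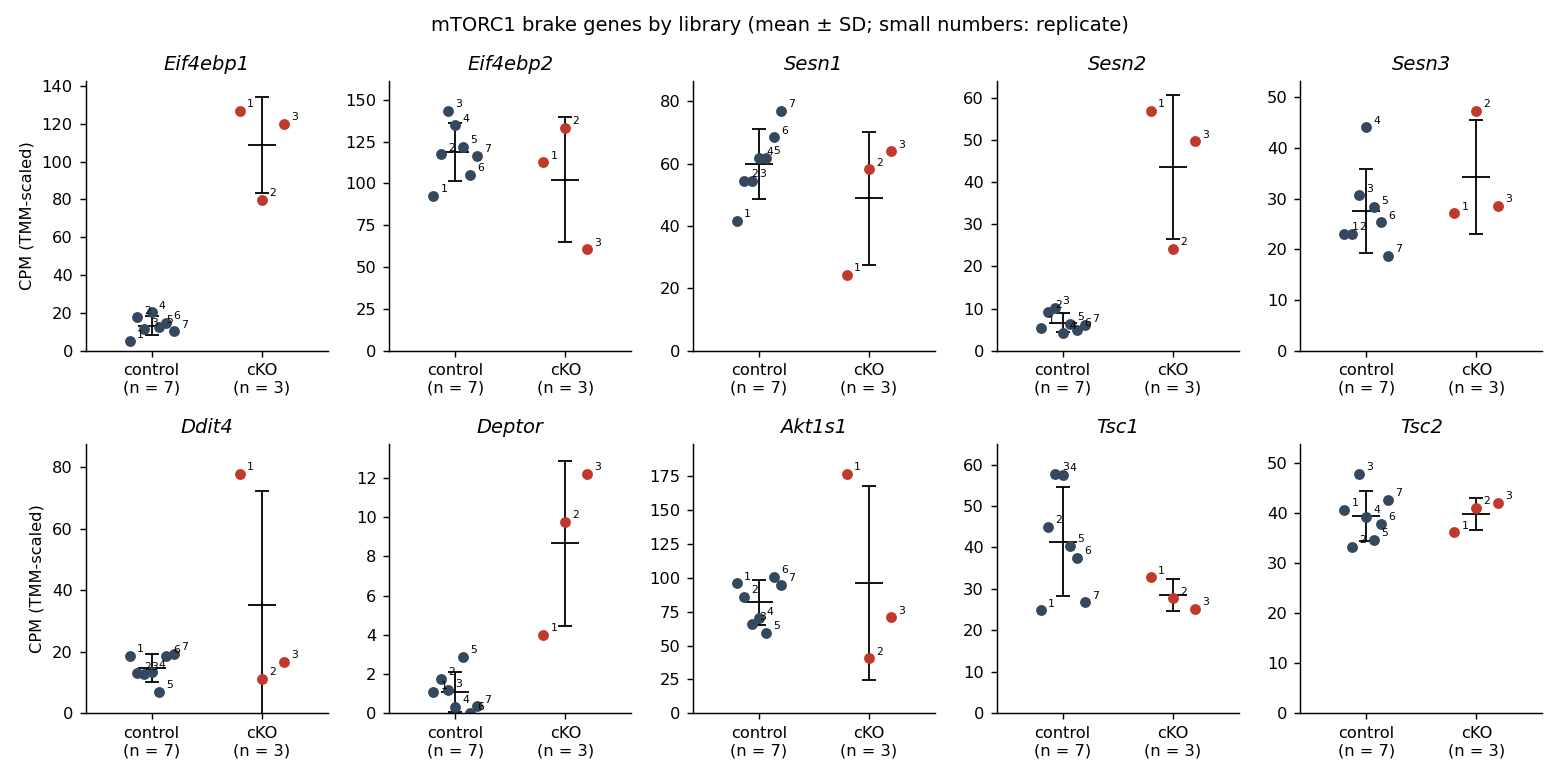
CPM of the 10 members in every library, controls in dark grey and cKO in red, with the mean and SD of each group in black (error bars are clipped at 0) and the replicate number beside each point. The cKO points of Eif4ebp1, Sesn2 and Deptor lie above all control points, whereas cKO replicate 1 stands far above the rest for Ddit4 and Akt1s1.

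Among the outputs of the pathway, Eif4ebp1 (ENSMUSG00000031490.6, plus strand, chr8:27260329-27276674 of GRCm38) had 127, 79.7 and 120 CPM in cKO replicates 1, 2 and 3. In the 7 controls it had 5.04 CPM at the lowest, 12.7 at the median and 20.3 at the highest. The lowest cKO library lay well above the highest control, and the libraries held 204 to 379 reads of the gene in cKO and 14 to 63 in controls. On the log2 scale the difference was 3.04 (standard error 0.25, adjusted p = 3.35e-06 in edgeR's test), which made Eif4ebp1 the gene with rank 2 by p among the 11551 tested. The 95% interval of the fold ran from 5.69 to 11.9.

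Its paralog Eif4ebp2 (ENSMUSG00000020091.15, minus strand, chr10:61428491-61452661) encodes 4E-BP2, the form best known from brain. It had 113, 133 and 60.6 CPM in the cKO libraries, against 92.5, 117 and 143 CPM at the lowest, median and highest control. The groups overlapped, with cKO replicate 3 alone below the controls. The log2 fold change was -0.21 (95% interval -0.65 to 0.22, edgeR adjusted p = 0.680), so the fold lay between 0.639 and 1.17.

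The paralogs were compared within each library through the log2 ratio of their CPM, with 0.5 added to each. The ratio of Eif4ebp1 to Eif4ebp2 averaged 0.14 over the cKO libraries (SD 0.86, n = 3) and -3.22 over the controls (SD 0.52, n = 7). These means lay 3.36 log2 units apart (exact permutation test, two-sided, p = 0.0167, which no split of 3 libraries against 7 can undercut, and 0.0222 after Benjamini-Hochberg adjustment over the 4 ratios tested). The members of the family therefore differed in their response, beyond the spread between libraries.

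Per kilobase of exon (RPKM, CPM divided by exon length), the balance of the family turned over. Eif4ebp1 made up 22.0% ± 6.14 (SD, n = 7) of the RPKM of the pair in controls, with a range of 12.5% to 28.4%, and 73.3% ± 11.4 (SD, n = 3) in cKO, where the libraries gave 74.8%, 61.2% and 83.9%. The summed level of the pair was 26.5 ± 4.56 RPKM in controls and 67.2 ± 9.13 in cKO. Eif4e, which encodes their target, stood at 25.2 ± 1.74 RPKM in controls and 26.9 ± 4.56 in cKO. The level of the pair relative to Eif4e was 1.06 ± 0.241 in controls and 2.59 ± 0.845 in cKO, with a highest control of 1.40 and a lowest cKO of 2.04. Exon lengths are unions of all annotated exons (2196 bases for Eif4ebp1, 5784 for Eif4ebp2). Shares and ratios between genes therefore depend on the annotation, and a ratio near 1 need not mean equal numbers of transcripts. These are mRNA levels and say nothing of how much of either protein was phosphorylated.

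**Figure D2:**
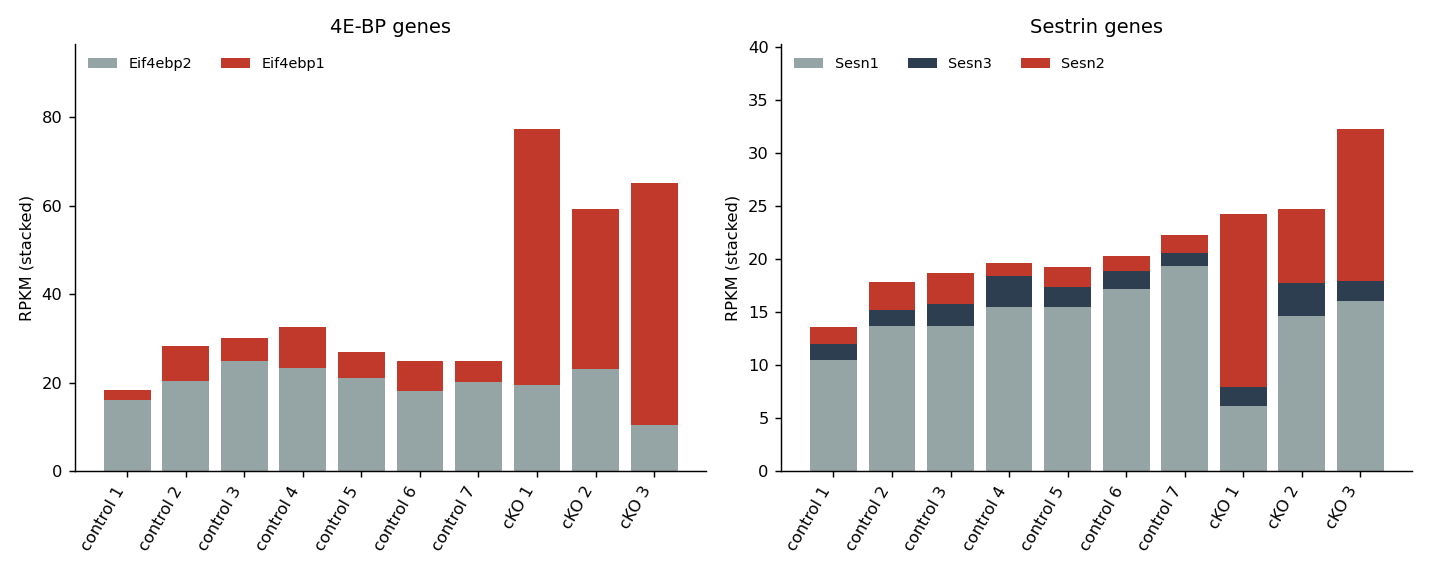
Stacked levels (RPKM, CPM per kilobase of exon, bars from 0) of the 4E-BP genes on the left and the sestrin genes on the right, 1 bar per library. Red segments are Eif4ebp1 and Sesn2, which make up at most 28.4% and 15.8% of the control bars, and Eif4ebp1 is the larger part of all 3 cKO bars.

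Among the nutrient inputs, Sesn2 (ENSMUSG00000028893.8, minus strand, chr4:132492032-132510501) encodes a sestrin whose binding to GATOR2 is released by leucine. It had 56.9, 24.2 and 49.6 CPM in cKO replicates 1, 2 and 3, or 170, 62 and 118 reads. The controls had 4.18 CPM at the lowest, 6.00 at the median and 10.2 at the highest, from 11 to 35 reads. All cKO libraries were above all controls, and replicate 2 was the lowest of the 3, as it was for Eif4ebp1. The difference of 2.70 on the log2 scale had a standard error of 0.32 (edgeR adjusted p = 9.40e-05), and the 95% interval of the fold ran from 4.10 to 10.3.

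Sesn1 (ENSMUSG00000038332.13, plus strand, chr10:41809935-41908424), a sestrin first described as a p53 target, had 24.4, 58.2 and 63.9 CPM in cKO. Its controls ran from 41.7 CPM through a median of 61.7 to 76.9. Replicate 1 was the single cKO library below the controls, and the log2 fold change of -0.32 (95% interval -0.86 to 0.23, edgeR adjusted p = 0.606) became 0.03 without it. Sesn3 (ENSMUSG00000032009.8, plus strand, chr9:14275067-14333101), a sestrin known as a FoxO target, had 27.1, 47.3 and 28.6 CPM in cKO and 18.7, 25.3 and 44.0 CPM at the lowest, median and highest control. The groups overlapped, and the log2 fold change was 0.30 (95% interval -0.28 to 0.88, edgeR adjusted p = 0.656).

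Within libraries, Sesn2 moved apart from both paralogs. The log2 ratio of Sesn2 to Sesn1 averaged -0.14 over the cKO libraries (SD 1.24, n = 3) and -3.12 over the controls (SD 0.56, n = 7), and that of Sesn2 to Sesn3 averaged 0.30 (SD 1.09) and -1.99 (SD 0.65). For each, the exact permutation p was 0.0167 and the adjusted p 0.0222, with no overlap between the groups. Per kilobase, Sesn2 was 10.4% ± 3.80 (SD, n = 7) of the summed sestrin level in controls and 46.7% ± 19.7 (SD, n = 3) in cKO. Sesn1 was 79.9% ± 4.64 in controls and 44.8% ± 17.5 in cKO, and Sesn3 was 9.77% ± 2.89 and 8.56% ± 3.53. The cKO libraries differed widely among themselves, with Sesn2 at 67.4%, 28.2% and 44.3% of the family.

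The promoter sequence of Sesn2 is shown because it is the upstream brake that was called, and that of Ddit4 because its level stood out in 1 cKO library. Both come from RefSeq (GRCm38.p6), are written 5′ to 3′ on the minus strand and end where the GENCODE gene model begins, and capitals mark the CCAAT box read on the opposite strand.
Sesn2, chr4:132510502-132510706: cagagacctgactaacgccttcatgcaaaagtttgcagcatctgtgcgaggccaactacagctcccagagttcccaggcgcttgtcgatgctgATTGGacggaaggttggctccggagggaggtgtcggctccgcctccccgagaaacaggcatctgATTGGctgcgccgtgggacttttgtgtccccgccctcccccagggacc
Ddit4, chr10:59951835-59952020: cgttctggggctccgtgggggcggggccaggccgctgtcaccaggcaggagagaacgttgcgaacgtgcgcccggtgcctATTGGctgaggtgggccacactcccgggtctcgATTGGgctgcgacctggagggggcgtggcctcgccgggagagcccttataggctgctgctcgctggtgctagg

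Each of these stretches holds 2 CCAAT boxes. RefSeq promoters were matched for 8 members, 9 windows in all because Sesn1 has 2. The other members, Eif4ebp1 and Deptor, were not searched. The 250 bases before each start in the RefSeq table were searched on both strands. RefSeq starts need not be those of the GENCODE gene models, whose coordinates are the ones printed with each member, and the windows of Sesn1, Sesn3 and Akt1s1 lie inside those coordinates, while those of Sesn2, Ddit4, Tsc1 and Tsc2 reach into them. CCAAT was found in 5 of the 9 windows, those of Sesn1, Sesn2, Sesn3 and Ddit4, and in 33.9% of the 32851 promoters in the table. ACGTG, the core of the hypoxia response element, was found in those of Ddit4 and Eif4ebp2 and in 16.6% of all promoters. TGATGNAA, the composite site of C/EBP and ATF factors, was in none of the 9 and in 3.45% of all promoters. TGACGTCA, CACGTG (which contains ACGTG) and GTAAACA were also in none of the 9, and in 1.55%, 6.02% and 3.17% of all promoters. The matches describe letters in these windows, and these data hold no measurement of binding.

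Ddit4 (ENSMUSG00000020108.4, minus strand, chr10:59949669-59951834) encodes REDD1, which is induced by hypoxia, glucocorticoids and other stresses and acts through the TSC complex. It had 77.9 CPM in cKO replicate 1 and 11.3 and 16.8 in replicates 2 and 3, against 6.93, 13.5 and 19.4 CPM at the lowest, median and highest control. A single cKO library stood above the controls and the other two lay among them. The log2 fold change was 1.29 (standard error 0.45) with an unadjusted p of 0.00981 and an adjusted p of 0.139 in edgeR's test. Without cKO replicate 1 it was -0.10 (adjusted p = 0.930), and without cKO replicate 2 it was 1.71 (adjusted p = 0.0213), so 1 library sets both its size and its direction. The same library had the highest summed immediate early gene level of the 10, 3756 CPM, and the highest summed globin and red blood cell level, 2291 CPM. Whether either has a part in its Ddit4 level was not tested.

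The TSC genes, which encode the complex that REDD1 acts on, did not pass the test. Tsc1 (ENSMUSG00000026812.16, plus strand, chr2:28641228-28691167) had 32.8, 27.7 and 25.2 CPM in cKO and 24.8, 40.4 and 57.8 CPM at the lowest, median and highest control, with a log2 fold change of -0.54 (95% interval -1.14 to 0.06, edgeR adjusted p = 0.368). All 3 cKO libraries lay in the lower part of the control range. Tsc2 (ENSMUSG00000002496.10, minus strand, chr17:24595816-24632630) had 36.1, 41.0 and 42.1 CPM in cKO and 33.3, 39.2 and 47.9 CPM at the lowest, median and highest control. Its fold lay between 0.751 and 1.32 (95% interval, edgeR adjusted p = 0.993). It shares 693 of its 9620 exon bases with the antisense gene Pkd1, and reads over both genes were counted on neither. The log2 ratio of Tsc1 to Tsc2 averaged -0.47 over the cKO libraries (SD 0.30) and 0.01 over the controls (SD 0.51), which overlapped (two-sided exact permutation test, p = 0.15, also after adjustment).

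The inhibitors that bind mTOR complexes gave 1 low gene and 1 that varied. Deptor (ENSMUSG00000022419.16, plus strand, chr15:55112317-55259271), which binds both mTOR complexes, had 12, 25 and 29 reads in cKO replicates 1, 2 and 3. The controls had 3, 5, 4, 1, 5, 0 and 1 reads in replicates 1 to 7. Its mean of 8.5 reads was under the minimum of 10, so it was not tested, and its mean level was 8.66 CPM in cKO (SD 4.20, n = 3) and 1.08 CPM in controls (range 0 to 2.89, n = 7). It shares 303 exon bases with the antisense transcript Gm9920. All 3 cKO libraries were above all 7 controls for 3 of the 10 members, and for 2 of the 9 members tested, Eif4ebp1 and Sesn2. The same was true of 3.32% of all genes tested.

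Akt1s1 (ENSMUSG00000011096.17, plus strand, chr7:44848991-44855421) encodes PRAS40, which blocks mTORC1 until AKT phosphorylates it. It had 177, 40.6 and 70.7 CPM in cKO, so that replicate 1 was above every control and replicate 2 below every control. The controls had 59.5 CPM at the lowest, 86.0 at the median and 101 at the highest. The log2 fold change was 0.25 (95% interval -0.40 to 0.89, edgeR adjusted p = 0.758), and it was -0.57 (adjusted p = 0.276) without cKO replicate 1. It shares 89 exon bases with Tbc1d17 and lies on chromosome 7, which carries the MADM cassettes in both groups.

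**Figure D3:**
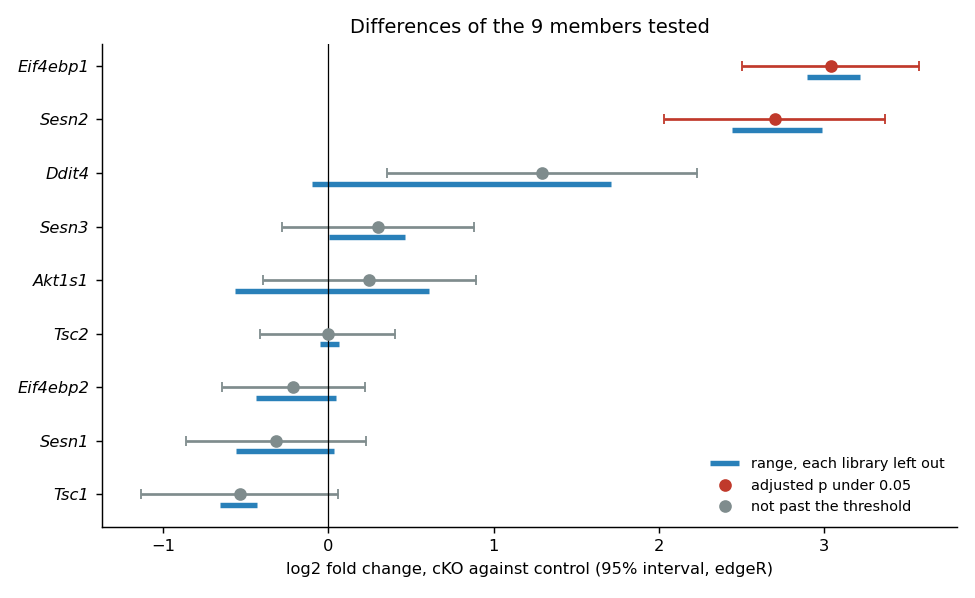
Log2 fold change (cKO against control) of the 9 members tested, with 95% intervals from edgeR and, in blue, the range when each library is left out in turn. The intervals of Eif4ebp1 and Sesn2 lie wholly above 2, and the blue ranges of Ddit4 (-0.10 to 1.71), Akt1s1 (-0.57 to 0.61), Sesn1, Eif4ebp2 and Tsc2 cross 0.

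The order of the levels changed with genotype. Per kilobase, the controls had Akt1s1 first at 26.6 ± 5.35 RPKM (SD, n = 7), then Eif4ebp2 at 20.5 ± 2.95, Sesn1 at 15.1 ± 2.82, Ddit4 at 8.39 ± 2.56 and Eif4ebp1 at 5.98 ± 2.28. Tsc2 followed at 4.10 ± 0.514, Tsc1 at 3.50 ± 1.12, Sesn2 at 1.90 ± 0.645, Sesn3 at 1.81 ± 0.539 and Deptor at 0.122 ± 0.113. Each neighbouring pair in this order overlapped in range over the control libraries, except Sesn3 and Deptor. In cKO, Eif4ebp1 stood first at 49.5 ± 11.6 RPKM (SD, n = 3), Sesn2 stood between Eif4ebp2 and Sesn1 at 12.5 ± 4.93, and Deptor was last at 0.976 ± 0.474. Neighbouring ranges there overlapped down to Sesn2 and Sesn1, as did those of Tsc1 and Sesn3, while Sesn1 and Tsc2, Tsc2 and Tsc1, and Sesn3 and Deptor were apart.

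The rest of the pathway was examined through 4 lists of 86 genes, none of them members. Of the 81 tested, 3 were higher in cKO at an adjusted p under 0.05 and 0 were lower, with edgeR, and 10 had an unadjusted p under 0.05. Over all genes tested, 3.15% were called and 16.4% (1890 of 11551) had an unadjusted p under 0.05, so the count of called pathway genes lay near this background. The median log2 fold change of the 81 was -0.06, against 0.01 over all genes tested, and for 62 of them the 95% interval lay within 1 log2 unit of 0. The 10 genes of the mTOR complexes (Mtor, Rptor, Rictor and their partners) were all tested, with 0 called in either direction, 0 at an unadjusted p under 0.05 and a median of -0.09. The amino acid sensing arm (Rag GTPases, Ragulator, GATOR1, GATOR2, KICSTOR and folliculin), to which the sestrins report, had 0 of 25 tested genes called, 1 with an unadjusted p under 0.05 and a median of -0.10.

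The growth factor and energy arm had 2 of 26 tested genes called, both higher, and a median of -0.05. Ddit4l, the paralog of Ddit4 that encodes REDD2, had 14.5 to 21.9 CPM in cKO and 0.354 to 8.66 in controls (log2 fold change 2.37, standard error 0.40, edgeR adjusted p = 0.00214). Its 3 cKO libraries lay close together, unlike those of Ddit4. Grb10, the imprinted adaptor that dampens insulin receptor signalling, had 49.5 to 137 CPM in cKO and 25.4 to 47.8 in controls (log2 fold change 1.22, standard error 0.29, adjusted p = 0.0248). Without cKO replicate 2, the log2 fold change of Grb10 was 0.60 (adjusted p = 0.208), and its call held in 12 of 20 alternatives. Among the effectors, 1 of 20 tested genes was called, with a median of -0.13. It was Eif4e3, a cap-binding relative of eIF4E, at 16.4 to 25.4 CPM in cKO and 5.66 to 16.7 in controls (log2 fold change 1.15, standard error 0.31, adjusted p = 0.05 after rounding). It lay just under the threshold, with overlapping groups, and passed with 6 of 20 alternatives.

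**Figure D4:**
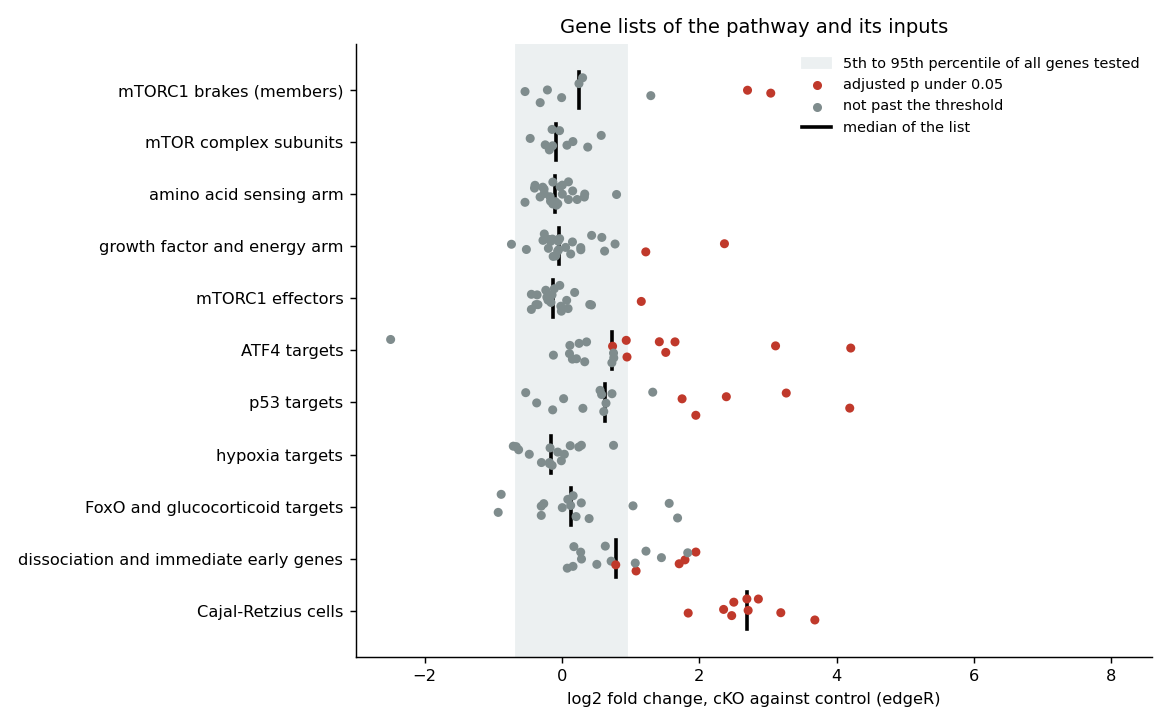
Log2 fold change (cKO against control, edgeR) of every tested gene in the members, the 4 pathway lists, 5 lists of target genes and the Cajal-Retzius markers, with list medians as black lines. The shaded band, -0.67 to 0.94, holds the middle of all genes tested (5th to 95th percentile), and most pathway genes lie inside it.

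Several members are also known targets of stress-responsive transcription factors, so lists of other targets of those factors were read beside them. These lists were drawn up with results of these data already known, and the counts are descriptions, to be read against the 3.15% of all genes called and the 16.4% with an unadjusted p under 0.05. Of 20 tested targets of ATF4, the factor of the amino acid response, which is known to act on Sesn2, Eif4ebp1 and Ddit4, 8 were higher and 0 lower, with a median of 0.73. They included Chac1, a glutathione-degrading enzyme, at 4.21 on the log2 scale (standard error 0.35). Asns (asparagine synthetase, 1.51, standard error 0.18), Slc7a5 (the large neutral amino acid transporter, 1.65, 0.23), Mthfd2 (mitochondrial folate enzyme, 1.42, 0.20) and Atf5 (3.11, 0.54) were also called, each with an edgeR adjusted p of 0.00297 or less. Atf5 had 69.2 CPM in its highest cKO library and 10.5 and 15.6 in the others, and it was at 1.76 (adjusted p = 0.0381) without cKO replicate 1. An unadjusted p under 0.05 was found for 11 of the 20 ATF4 targets tested. The summed level of the list was 2925, 2099 and 2725 CPM in cKO replicates 1, 2 and 3 and 1534 to 1936 in controls.

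Of 16 tested targets of p53, which is known to act on Sesn1 and Sesn2, 5 were called higher and 0 lower, with a median of 0.62. In either direction, 11 had an unadjusted p under 0.05. Cdkn1a (p21) stood 3.27 log2 units higher (standard error 0.36), Phlda3 2.39 (0.27), Eda2r 4.19 (0.63), Gtse1 1.75 (0.30) and Bbc3 (PUMA) 1.95 (0.45), with edgeR adjusted p values from 5.80e-05 to 0.0213. Without cKO replicate 1, Bbc3 was at 0.75 (adjusted p = 0.368), and without control replicate 4, Eda2r was at 5.85. The p53 list summed to 1379, 1083 and 1549 CPM in cKO and 705 to 1050 in controls.

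Targets of hypoxia-inducible factor, among whose known targets Ddit4 is counted, gave 0 of 16 called in edgeR's test, with 4 at an unadjusted p under 0.05 and a median of -0.16. Targets of FoxO and the glucocorticoid receptor, which are known to act on Sesn3 and Ddit4, gave 0 of 15 called, with 6 at an unadjusted p under 0.05 and a median of 0.13. Immediate early and dissociation genes gave 5 of 17 called, all higher, with 10 at an unadjusted p under 0.05 and a median of 0.78. The 5 called were Egr1 (1.71, standard error 0.20), Fosb (1.95, 0.33), Dusp1 (0.78, 0.17), Fos (1.08, 0.24) and Egr3 (1.79, 0.42). Egr3 had 18 to 30 reads in cKO and 2 to 13 in controls, and it reached the minimum mean of 10 through its cKO reads. The immediate early list summed to 3756, 1882 and 2583 CPM in cKO and 1145 to 1949 in controls. Replicate 2 was inside the control range and replicate 1 highest. Replicates 1 and 3 were also the higher libraries for Eif4ebp1 and Sesn2. Without cKO replicate 1 or replicate 3 the count of genes called was 3, and without replicate 2 it was 8. Whether the cell release step has a part in the members' values was not tested.

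**Figure D5:**
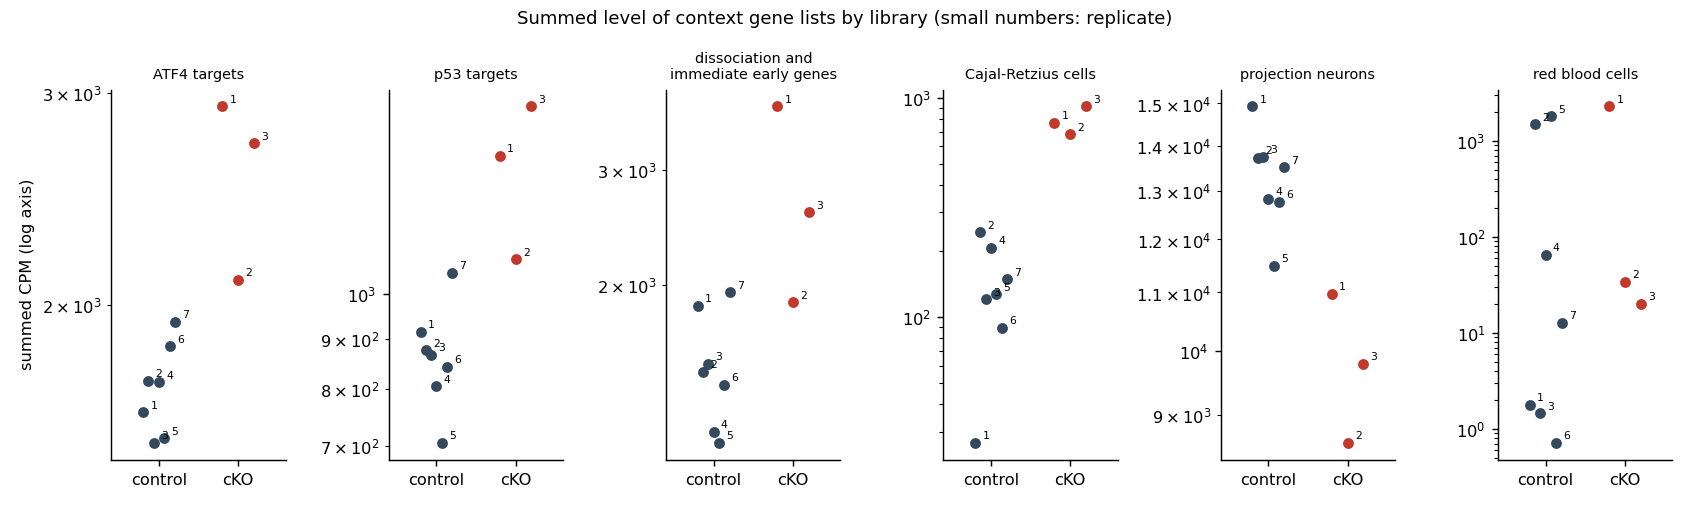
Summed CPM of 6 gene lists in every library (log axes, each panel with its own range), controls in dark grey and cKO in red with the replicate number beside each point. The ATF4, p53 and Cajal-Retzius sums of all 3 cKO libraries lie above all controls, those of projection neurons lie below, and those of immediate early genes and red blood cells overlap.

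The levels of cell type markers also differed between the genotypes. All 9 tested markers of Cajal-Retzius cells, the early Reelin-secreting neurons of the marginal zone, were higher in cKO (median log2 fold change 2.69), and the 10 markers summed to 681 to 912 CPM in cKO and 26.6 to 244 in controls. Of them, Reln had 244 to 361 CPM in cKO and 2.85 to 78.2 in controls, and Trp73 had 20.7 to 34.9 and 0 to 11.3. Lhx1 (31 to 50 reads in cKO, 0 to 11 in controls) and Cacna2d2 (16 to 52 and 0 to 16) were low in controls. They reached the minimum mean of 10 reads through their cKO reads, so which markers were tested depends in part on the difference itself. Of 17 projection neuron markers, 4 were lower and 0 higher (median -0.59), and they summed to 8591 to 10979 CPM in cKO and 11494 to 14927 in controls. Of 12 genes of cortical identity, a list that shares members with this one, 3 were lower and 0 higher. The Cajal-Retzius sum moved with genotype as Eif4ebp1, Sesn2 and Deptor did, and its part in their values was not tested. Among the 3 cKO libraries the sums were 768, 681 and 912 CPM, and replicate 2 was lowest, as it was for Eif4ebp1 and Sesn2 but not for Deptor.

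Among the other marker lists, radial glial progenitors had 0 of 13 tested genes called and a summed level of 1758 to 3220 CPM in cKO and 1857 to 3035 in controls. Intermediate progenitors had 0 of 9, at 1339 to 1521 and 1094 to 1765 CPM. GABAergic interneurons had 1 of 9 higher (Dlx2) and 1 lower (Npy), at 68.9 to 180 and 74.3 to 277 CPM. Red blood cells had 0 of 5 called, at 20.2 to 2291 and 0.713 to 1807 CPM, and oligodendrocyte precursors 0 of 2, at 13.3 to 40.8 and 1.43 to 87.8 CPM. No endothelial or microglial marker reached the minimum of reads. The endothelial sums were 7.36 to 25.4 CPM in cKO (median 15.1) and 3.54 to 11.5 in controls (median 5.25). The microglial sums were low too, but those of all 3 cKO libraries, 7.42 to 59.3 CPM (median 9.03), lay above all controls, 0 to 6.75 (median 2.16). The high value was that of cKO replicate 3, and the other two cKO libraries, at 9.03 and 7.42 CPM, lay close to the highest control. The macrophage gene Mrc1 had a median of 2.34 CPM in cKO and C1qc of 2.01, against control medians of 0, whereas the medians of Aif1 were 0.841 in cKO and 1.06 in controls. Trem2 was at 0 in every library, and the microglial gene P2ry12 had a median of 0 in both groups. The part of these sums in the values of Eif4ebp1, Sesn2 and Deptor was not tested.

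Across the 10 libraries, the genes whose log2 CPM followed Eif4ebp1 most closely were Kcnip2 (Pearson r = 0.951), Slc7a5 (0.944) and Phlda3 (0.943). Those nearest to Sesn2 were Emc9 (0.969), Tmem163 (0.957) and Tmem176b (0.956). All 6 were called higher in cKO, and since the points share their genotype these values describe mainly the step between groups. Eif4ebp1 and Sesn2 were themselves at r = 0.906 and Spearman's rho = 0.576.

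The libraries also fell apart by the share of uniquely aligned reads that lay outside genes, into 5 with 5.47% to 8.64% (1 cKO and 4 controls) and 5 with 12.8% to 16.7% (2 cKO and 3 controls). The genotype difference of Eif4ebp1 was 3.32 on the log2 scale in the first set, where a lone cKO library allows no test of its own spread, and 2.80 in the second (edgeR adjusted p = 0.00844). That of Sesn2 was 2.94 in the first and 2.54 in the second (adjusted p = 0.0588, just above the threshold, with 2 cKO libraries). Ddit4 was at -0.06 in the first set and 1.98 in the second, which holds cKO replicate 1. Eif4ebp1 alone of the members tested passed in the second set.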

How the data were processed

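Per the labels and the study's methods, the authors combined technical replicates, aligned reads to GRCm38 with STAR 2.5.0c, removed multimapping reads and deposited raw counts per GENCODE gene in unstranded and strand-specific columns. The unstranded counts were used here, in which reads over more than 1 gene are left out; Akt1s1, Deptor and Tsc2 overlap other genes. Smart-Seq2 reads carry no molecular identifiers. Gene symbols came from GENCODE M21 (105 of 53379 identifiers did not match).

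A gene was tested when it averaged 10 or more reads per library. The test was made with edgeR 4.0.16 (TMM, quasi-likelihood test, Benjamini-Hochberg adjustment over 11551 genes, threshold 0.05) in R 4.3.3, with alternatives in DESeq2 1.42.0 and limma 3.58.1. RPKM is CPM divided by the union exon length. Ratios between paralogs were tested with exact permutation of the 3 cKO and 7 control libraries. The members, lists and tests were chosen with earlier results of these data known. Named genes were the 10 members, at most the 5 called genes with the smallest p in each pathway or target list, Cdkn1c, the 3 genes nearest to each called member, and the defining markers of cell types. A few other genes were named where they went the other way or set a limit. Within each genotype 24 pairs of libraries were compared, and their counts differed by a chi-square of at least 4.98 per degree of freedom, so none was a duplicate.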

Additional observations from a re-analysis of the deposited data

How the results depend on the processing

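Over the 19 alternatives with 2 or more cKO libraries, Eif4ebp1 passed the threshold in 19 (log2 fold change 2.80 to 3.25) and Sesn2 in 18 (2.35 to 2.99), the exception being the libraries with over 10% of reads outside genes. That set and the set under 10%, which has 1 cKO library, were added after seeing the data, and counts in the latter assume that this library varies like the controls. The number of members called was 4 with no filter on low counts, which added Ddit4 (adjusted p = 0.00115) and Deptor (3.03, adjusted p = 9.37e-06), 1 in the libraries with over 10% of reads outside genes, and 2 to 3 when each library was left out. The number over all genes was 961 with no filter, 209 with at least 10 reads in every library, 213 with the replicate block, 67 and 55 in the libraries under and over 10% outside genes, and 271 to 419 with a library left out. The 4 pathway lists had 3 genes called, but 1 with limma-voom, 1 with the replicate block, 1 and 0 in these sets, and 1 to 3 with a library left out, where the count of 1 came without control replicate 1, 3 or 7. Of ATF4 targets, 8 were called, but 15 with no filter (14 higher and Slc7a11 lower), 5 with the replicate block, and 4 and 2 in the sets under and over 10%. In these sets the p53 targets called fell from 5 to 3 and 2, the immediate early genes from 5 to 0 and 2, the Cajal-Retzius markers from 9 to 5 and 3, and the projection neuron markers from 4 to 1 and 2. With no filter 10 immediate early genes and 9 projection neuron markers were called, with the replicate block 3 immediate early genes, with DESeq2 or without cKO replicate 1 7 projection neuron markers, and with at least 10 reads in every library 2 Cajal-Retzius markers, which were all that were then tested.

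Same-numbered libraries did not deviate together (correlations of 0.04, -0.11 and -0.21, none of them the best match), so the numbers do not pair them, and with the replicate block the number of members called was 2.

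Ddit4 was at -0.059 in the libraries under 10% and at -0.10 to 1.71 with a library left out. Akt1s1 was at -0.42 in the former and -0.57 to 0.61 in the latter, Sesn1 at 0.074 and -0.56 to 0.031, and Eif4ebp2 changed sign only with a library left out (-0.44 to 0.046). Tsc2, at -0.01, was at 0.011 with DESeq2, 0.0027 with its size factors in edgeR, 0.019 with at least 10 reads in every library, 0.066 with summed strand-specific counts, 0.12 in the libraries under 10% and -0.053 to 0.065 with a library left out.

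Leaving a library out gave differences in log2 ratio of 2.93 to 3.79 for Eif4ebp1 to Eif4ebp2, 2.32 to 3.54 for Sesn2 to Sesn1, 1.91 to 2.91 for Sesn2 to Sesn3 and -0.65 to -0.36 for Tsc1 to Tsc2. With 2 cKO libraries against 7 controls the exact permutation test cannot go below 0.0556, so no ratio could pass. Deptor was left untested by the minimum of 10 reads. The interval of Tsc1 still holds a fold of 0.455.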
